A study of Mus musculus with 16 samples.

Results

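Rfx3-only distal regions are stretches of the mouse genome that carried a CUT&RUN peak for the transcription factor Rfx3, carried no overlapping peak for Foxn3 or Foxn4, and lay away from the ends of genes. They were found by merging every peak that overlapped another by at least 1 bp, across the lists of the 3 factors, and keeping merged regions with Rfx3 alone whose midpoint was more than 1 kb from both ends of every RefSeq protein-coding gene. The rule kept 1052 of 6155 merged regions. They made up 1052 of the 3973 regions with an Rfx3 peak and 1052 of the 2038 such regions that were distal. The other Rfx3-only regions, 507 of 1559, lay at gene ends. The regions were chosen by the presence of peaks and by the distance to gene ends. The presence of peaks in the regions, the authors' Rfx3 score, the peak width and the distance to gene ends are therefore given below as description, without a test.

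The assays used dissociated retina cells, pooled from embryos of the outbred mouse strain CD-1 taken at embryonic day 16, at about 300000 cells each. In CUT&RUN an antibody brings micrococcal nuclease to a protein on chromatin, and the DNA cut free around it is sequenced. The libraries numbered 2 for anti-Rfx3, 4 for anti-Foxn3 and 2 for anti-Foxn4, with 2 and 4 rabbit IgG and 2 mouse IgG control libraries in the same order; no genotype or agent other than the antibody is named for any of these groups. Nuclease acted for 1 h, or for about 12 h in the Foxn4 and mouse IgG assays, so a difference that involves the Foxn4 list cannot be told apart from digestion time. Each antibody had 1 peak list and no value per library, the IgG libraries were not analysed here, and the depth is unknown. A region therefore had no spread between replicates, and every interval and p-value below describes regions within these lists, which are not biological replicates. Peak lists hold no expression values, so the labelled tissue was not checked against marker genes.

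Rfx3 belongs to the RFX family, whose winged-helix domain binds the X-box, an inverted repeat of a short site. The family is best known for switching on genes of the cilium, mostly from X-boxes close to where transcription starts. In the retina the dividing progenitors carry a primary cilium, and the light-sensing outer segment of a photoreceptor is a modified cilium. Binding away from gene ends can fall on enhancers, on promoters inside a gene that start a shorter transcript, or on the starts of long noncoding RNAs (lncRNAs).

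Sequence could be read where a region coincided with an annotated start, because RefSeq start windows (GRCm38.p6, from 250 bases before a transcription start to 50 after it) were the sequence used here. The 200 bp around the Rfx3 peak midpoint met such a window in 89 of the 1015 regions evaluated (8.77%). Of these 89 windows 55 belonged to protein-coding genes and 34 to lncRNAs. The coding starts are internal or additional starts, since every region lay more than 1 kb from the outer ends of the genes, and 53 of the 55 belonged to the gene that holds the region. Each window was searched for the RFX half-site GTTGCC on either strand. It was also searched for an RFX pair, which is a half-site, 0 to 3 bases, and then the reverse complement of a half-site. In a pair each half-site may be GTTGCC or a variant of it, namely GTTGCT, the variant GTTACC with another change, or the variant GTTTCC. A pair with GTTGCC in it also counts as a half-site. A pair occurred in 15 of the 89 windows, in 14 of them within the 250 bases before the start.

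The runs of 150 bases that follow carry the RFX letters of these regions, written 5′ to 3′ along the strand of the transcript, with the pair in capitals. The first 4 are those with the highest Rfx3 scores, 223, 201, 172 and 165. Iqsec1 (an exchange factor for the small GTPase Arf6) and Celf5 (an RNA-binding splicing regulator) have internal coding starts here. The lncRNA 1700041B01Rik starts beside Elfn2, and the lncRNA Gm40716 is the annotated start nearest to Onecut3 among these regions.
Iqsec1 (chr6:90810207-90810356, minus strand): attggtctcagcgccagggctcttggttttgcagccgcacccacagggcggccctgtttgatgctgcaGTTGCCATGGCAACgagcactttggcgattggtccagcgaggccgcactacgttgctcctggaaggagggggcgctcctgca
1700041B01Rik (chr15:78670488-78670637, plus strand): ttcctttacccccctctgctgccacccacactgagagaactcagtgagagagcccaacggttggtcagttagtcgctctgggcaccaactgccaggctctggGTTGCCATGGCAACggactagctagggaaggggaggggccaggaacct
Gm40716 (chr10:80475381-80475530, minus strand): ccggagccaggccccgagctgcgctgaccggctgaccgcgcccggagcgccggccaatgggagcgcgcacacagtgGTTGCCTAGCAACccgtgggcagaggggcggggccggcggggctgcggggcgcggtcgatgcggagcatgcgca
Celf5 (chr10:81472964-81473113, minus strand): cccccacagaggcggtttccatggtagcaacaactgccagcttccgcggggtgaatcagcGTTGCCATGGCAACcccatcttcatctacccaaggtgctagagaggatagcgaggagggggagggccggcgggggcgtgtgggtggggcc
Iqsec1, 1700041B01Rik and Celf5 held the same 14 letters, a perfect inverted repeat with 2 bases between its arms, and the pair of Gm40716 had 1 base there. Another 4, not the next in order, are lower in score, at 145, 105, 101 and 46, and were picked to show how the arms vary. Mical3 encodes an actin-oxidising enzyme and Pfkfb2 an enzyme that sets the level of a regulator of glycolysis.
1700030A11Rik (chr17:28905115-28905264, plus strand): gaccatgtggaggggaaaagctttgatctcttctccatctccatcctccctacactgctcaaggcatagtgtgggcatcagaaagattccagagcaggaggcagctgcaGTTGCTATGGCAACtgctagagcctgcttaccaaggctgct
1700012C14Rik (chr6:30460835-30460984, plus strand): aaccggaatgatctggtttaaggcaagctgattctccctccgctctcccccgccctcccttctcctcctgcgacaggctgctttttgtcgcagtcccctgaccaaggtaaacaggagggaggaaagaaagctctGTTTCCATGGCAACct
Mical3 (chr6:121131023-121131172, minus strand): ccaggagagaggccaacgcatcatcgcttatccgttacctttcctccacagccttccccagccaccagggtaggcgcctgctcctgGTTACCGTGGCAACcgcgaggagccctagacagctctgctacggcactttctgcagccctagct
Pfkfb2 (chr1:130715922-130716071, minus strand): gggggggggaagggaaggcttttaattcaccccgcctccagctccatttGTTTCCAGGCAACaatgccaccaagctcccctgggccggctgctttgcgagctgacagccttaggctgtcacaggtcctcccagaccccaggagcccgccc
Of the 14 pairs before a start, 4 had GTTGCC in both arms, 9 had 2 bases between the arms and 5 had 1 base. The centre of the pair lay 9 to 130 bp from the midpoint of the Rfx3 peak, with a median of 67.5 bp.

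Among the 10 regions with the highest scores, Tmem9, Ak1 and Spg21 lay at an annotated start, and the windows of Tmem9 and Ak1 held half-sites without a pair. These are shown with each half-site, on either strand, in capitals.
Tmem9 (chr1:136017906-136018055, plus strand): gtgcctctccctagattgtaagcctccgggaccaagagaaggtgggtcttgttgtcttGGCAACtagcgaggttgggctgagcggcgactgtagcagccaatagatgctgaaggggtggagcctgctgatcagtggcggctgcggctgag
Ak1 (chr2:32629350-32629499, plus strand): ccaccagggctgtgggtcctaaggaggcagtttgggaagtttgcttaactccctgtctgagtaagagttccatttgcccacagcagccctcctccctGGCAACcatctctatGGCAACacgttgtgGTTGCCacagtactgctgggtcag
The printed run of Tmem9, which encodes a membrane protein of lysosomes, held 1 half-site, and that of Ak1, a cytosolic adenylate kinase, held 3. No pair or half-site was found in the window of Spg21, which says only that these letters are not in that window.

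RFX pairs were present in 16.9% of the 89 windows (95% Wilson interval 10.5% to 26%), against 1.12% of all 32851 RefSeq start windows. Half-sites were present in 36 of the 89 (40.4%, 30.9% to 50.8%), against 12.5% of all windows. In distal regions that Foxn3 shared with Rfx3 without Foxn4, the pair was found in 13 of 103 windows (12.6%), and the odds ratio of 1.40 had an interval of 0.628 to 3.14. Distal regions with all 3 factors had it in 1 of 52 windows (1.92%; odds ratio 10.3, 1.32 to 80.7; adjusted exact p = 0.057, Fisher's exact test). Rfx3-only regions at gene ends had it in 26 of 334 (7.78%; odds ratio 2.40, 1.21 to 4.76; adjusted exact p = 0.0897). None of these 3 differences passed 0.05 after Benjamini-Hochberg adjustment over the 30 letter tests, nor did those for the half-site, found in 42.7%, 17.3% and 27.8% of the same windows. With a gene-end distance of 500 bp in place of 1 kb, the last 2 pair differences did pass, at odds ratios of 12.9 and 2.76 (adjusted exact p = 0.0225 and 0.0251). With GTTGCC required in both arms, 4 of the 89 windows held a pair, and those odds ratios were 2.40 and 5.19 (adjusted exact p = 1 and 0.23). Against regions with all 3 factors the pair fell short with 50% overlap (adjusted exact p = 0.057) or peaks up to 200 bp apart merged (0.0558). It also fell short at scores at or above the list's median (0.0987) and with 1 region per 100 kb (0.0701). Against gene ends the same settings gave 0.139, 0.0861, 0.476 and 0.148. There, 5 kb gave 0.056 and the gene table without predicted, unnamed and receptor-family genes 0.0869. The half-site difference from regions with all 3 factors passed at 500 bp (adjusted exact p = 0.0225) and with peaks up to 200 bp apart merged (0.0339). It also passed at scores at or above the list's median (0.0468). Without predicted, unnamed and receptor-family genes, the half-site and pair differences from regions with all 3 factors passed (both 0.0315). The half-site fell short with 5 kb (0.143), 50% overlap (0.057) or 1 region per 100 kb (0.0701). Against gene ends it passed at 5 kb only (0.0153).

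**Figure D1:**
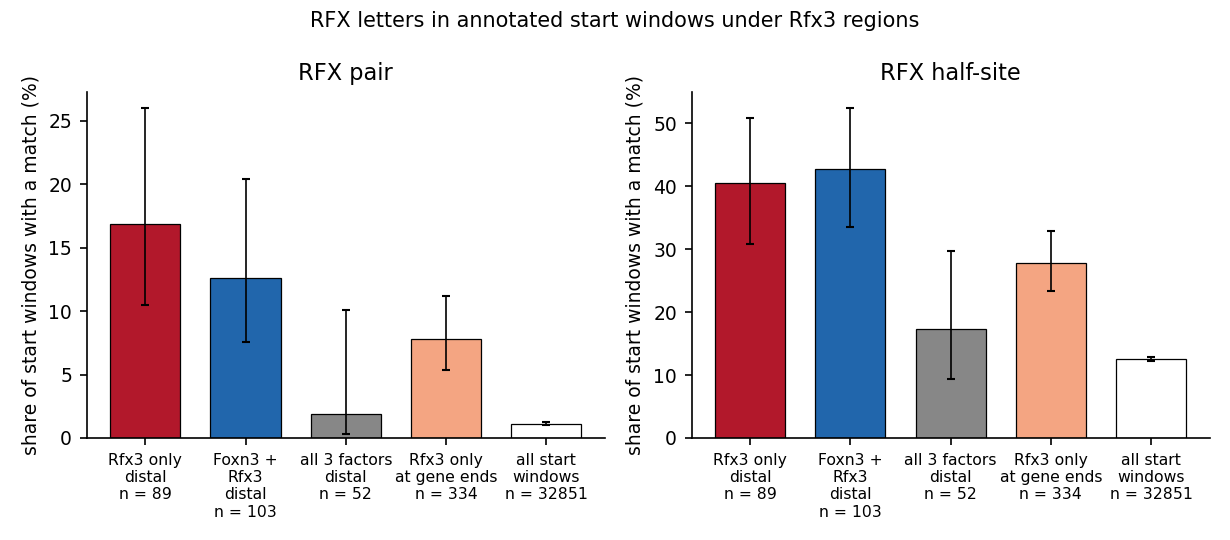
Share of start windows with an RFX pair (left) or an RFX half-site (right), in percent, for 4 classes of Rfx3 regions and for all RefSeq start windows; bars are shares, lines are 95% Wilson intervals and n is the number of windows. The Rfx3-only distal windows stand at 16.9% and 40.4%, and all windows at 1.12% and 12.5%.

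lncRNA starts held the pair in 9 of 34 windows (26.5%, 14.6% to 43.1%), where all lncRNA windows held it in 1.24%. Coding starts held it in 6 of 55 (10.9%, 5.1% to 21.8%), where all coding windows held it in 1.06%. The 7.78% at Rfx3-only gene ends, which lie within 1 kb of a protein-coding gene end, was inside that interval of the coding starts. Neither the pair nor the half-site was compared between classes within coding starts alone. The scores of regions with a pair ran from 46 to 223 with a median of 101, and those of regions without one from 14 to 986 with a median of 58. The ranges overlapped, and the highest-scoring windows of all, at Tmem9, Ak1, Spg21 and Pnkd, had no pair. One of the windows with a half-site belonged to Rd3, which encodes a regulator of photoreceptor guanylate cyclase and was singled out after its values were seen. The Rd3 peak (chromosome 1, 191977153 to 191977566) had a score of 110, and its midpoint lay 10 bp before an internal start of that gene.

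**Figure D2:**
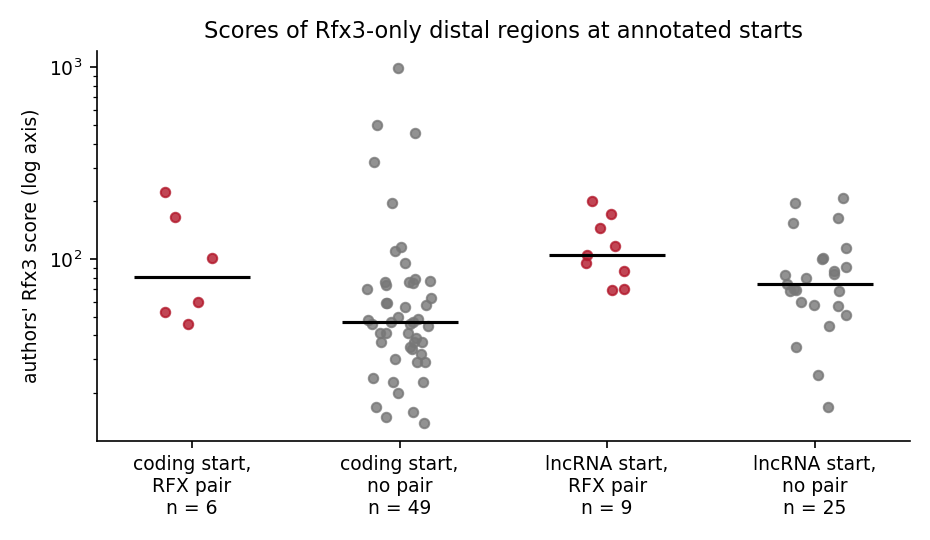
The authors' Rfx3 score (log axis) of the 89 Rfx3-only distal regions at annotated starts, split by kind of transcript and by presence of an RFX pair; each point is a region and each line a median. The 15 regions with a pair lie between 46 and 223, inside the range of 14 to 986 of the 74 without.

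Among the other letters searched, the GC box was the one whose share differed past the threshold. The GC box GGGCGG was present in 55.1% of the 89 windows and in 74.3% of windows at Rfx3-only gene ends (odds ratio 0.425, 0.262 to 0.689; adjusted exact p = 0.0197, Fisher's exact test), with 35.7% of all windows holding it. That odds ratio was 0.181 with a limit of 5 kb and 0.228 at scores at or above the list's median. At distal regions shared with Foxn3 the GC box was in 56.3% of windows, and at those with all 3 factors in 73.1%. Neither difference from the 89 windows passed the threshold (odds ratios 0.95 and 0.451). Base composition differed likewise: G and C made up 60.2% ± 9.45 of the bases (SD, n = 89 windows) against 63.5% ± 8.04 (SD, n = 334) at gene ends, a difference of -3.24 percentage points (adjusted permutation p = 0.00414 over 3 comparisons, two-sided). At scores at or above the list's median it was -3.66 points, short of the threshold (adjusted permutation p = 0.147). The 89 windows included 34 lncRNA starts and otherwise internal or additional coding starts. The 334 lay under regions within 1 kb of a protein-coding gene end. Neither the GC box nor GC content was compared within coding starts alone. Against both other distal classes no difference in GC content was detectable (59.3% ± 8.26, n = 103, and 60.5% ± 7.49, n = 52; permutation test, adjusted p = 0.716 and 0.876). The CCAAT box was held by 44.9% of the windows, and by 69.2% of those at distal regions with all 3 factors (adjusted exact p = 0.0624). The forkhead letters TAAACA were found in 6.74% and the letters GACGC, an alternative site of some forkhead factors, in 39.3%, with no difference past the threshold from any class. The remaining letters searched, on both strands, were the E-boxes CAGCTG and CAGATG, the homeodomain site TAATTA and the core of the CTCF site, in 10.1%, 12.4%, 1.12% and 3.37% of the windows.

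In the authors' score, which has meaning only within the Rfx3 list, the 1052 regions ran from 11 to 986 with a median of 68 and quartiles of 49 and 99. The whole Rfx3 list had a median of 76 and quartiles of 43 and 165. When the list was split at its quartiles, the 1052 regions fell from the lowest to the highest scores as 184, 422, 368 and 78, which is 17.5%, 40.1%, 35% and 7.41% of them. Distal regions shared with Foxn3 had a median score of 155.5, those with all 3 factors 55, and Rfx3-only regions at gene ends 49. The Rfx3 peak in these regions was 391 bp wide in the median (quartiles 308 and 530.2 bp), against 451.5, 593 and 444 bp in those classes.

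Tmem9 had the highest score, 986, with a peak at chromosome 1, 136017687 to 136018282, higher than 98.2% of the Rfx3 list. Lmtk3, a membrane kinase of neurons, followed at 590 (chromosome 7, 45784289 to 45785687), with its peak 8.82% along the gene from its start. Ak1 (chromosome 2, 32629148 to 32629806) had 503 and Spg21, a gene of hereditary spastic paraplegia, 455 (chromosome 9, 65460359 to 65461109). Outside genes, the highest was 460, at a region 33141 bp from the mitochondrial prohibitin gene Phb (chromosome 11, 95633566 to 95634066). The next were 369, at 293908 bp from Gm40514, and 356, at 1348 bp from LOC666331. Cacna1g, a T-type calcium channel gene, held a region with 362, Cabin1, encoding a calcineurin-binding protein, one with 335, and Tenm4, encoding an adhesion molecule of the teneurin family, one with 334. Of these 10 genes only Cabin1 also had an Rfx3 peak within 1 kb of one of its ends.

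Distances to the nearest gene end started at 1020 bp, with a median of 21569 bp and quartiles of 7011 and 59478 bp. Beyond 100 kb lay 159 regions (15.1%). Within 10 kb lay 353 of the 1052 (33.6%, 30.8% to 36.5%), against 256 of 564 distal regions shared with Foxn3 (45.4%, 41.3% to 49.5%). Distal regions with all 3 factors had 109 of 345 within 10 kb (31.6%). The shares of Rfx3-only regions and of those shared with Foxn3 lay apart next to the limit of the rule, at 6.46% and 13.8% from 1 to 2 kb and 12.5% and 18.1% from 2 to 5 kb. From 5 to 10 kb they were 14.5% and 13.5%. At the limit itself, the nearest regions kept were at Mapkapk3, Rxra and Stab2, 1020, 1033 and 1037 bp from an end, and the nearest left out were at Fbxo27, Zfp768 and Asah1, at 998, 983 and 982 bp.

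**Figure D3:**
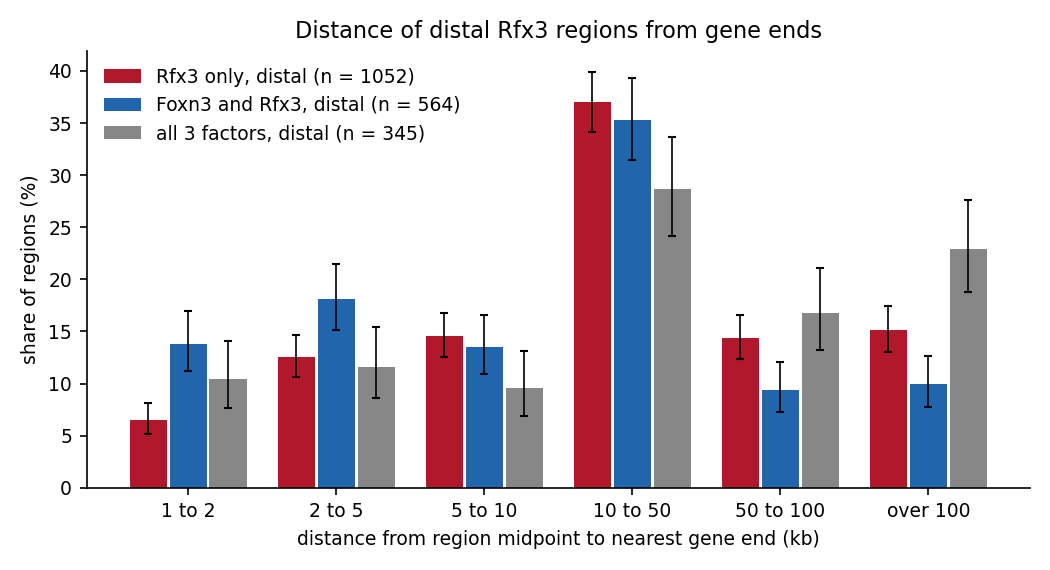
Share of regions (percent) by distance from the region midpoint to the nearest protein-coding gene end (kb), for 3 classes of distal Rfx3 regions; bars are shares and lines 95% Wilson intervals. From 1 to 2 kb lie 6.46% of the Rfx3-only regions and 13.8% of those shared with Foxn3.

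Inside a protein-coding gene lay 571 of the regions (54.3%, 51.3% to 57.3%), and 481 lay between genes. The share was 61% (344 of 564) for distal regions shared with Foxn3 (odds ratio 0.759, 0.617 to 0.935; adjusted exact p = 0.0148 over 12 position tests, Fisher's exact test) and 55.9% for those with all 3 factors (odds ratio 0.935, 0.732 to 1.19; adjusted exact p = 0.731). The first of these was no longer past the threshold over 5 kb from gene ends (0.926, adjusted exact p = 0.647), at scores at or above the list's median (0.767, adjusted exact p = 0.0685), at scores from that median to the upper quartile (0.746, adjusted exact p = 0.231) or without regions at an annotated start (0.819, adjusted exact p = 0.212). The gene table gives no exons, so whether a region was exonic or intronic was not determined.

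Along the genes, the regions were spread from start to end. Strand was known for 438 of the 571, and of these 223 lay in the first 50% of their gene (50.9%, 46.2% to 55.6%), with a median position of 49.6% and quartiles of 27.9% and 73.9%. Distal regions shared with Foxn3 lay in the first 50% in 190 of 272 cases (69.9%, 64.2% to 75%), with a median position of 30.3%. The odds ratio was 0.448 (0.325 to 0.616; adjusted exact p = 4.50e-06, Fisher's exact test). Regions with all 3 factors lay there in 103 of 158 cases (65.2%), with a median position of 35.8% (odds ratio 0.554, 0.380 to 0.808; adjusted exact p = 0.00503). Without regions at an annotated start the values were 0.593 and 0.722, the second no longer past the threshold (adjusted exact p = 0.275). Among regions of like score, from the list's median of 76 to its upper quartile of 165, they were 0.486 and 0.540, both short of it (adjusted exact p = 0.052 and 0.245).

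**Figure D4:**
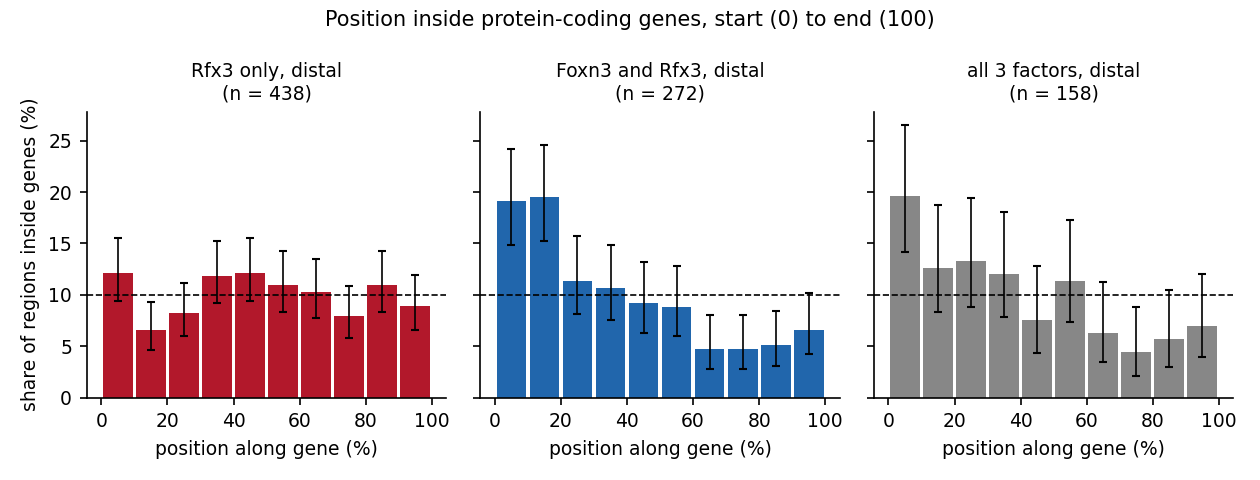
Position of distal Rfx3 regions inside protein-coding genes, from the start (0) to the end (100) of the gene in steps of 10%, as a percentage of the regions of each class; lines are 95% Wilson intervals and the dashed line marks an even spread of 10%. The first 10% holds 12.1% of the Rfx3-only regions and 19.1% and 19.6% of the other classes.

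Annotated starts were set against the same classes. The 37 regions on chromosome 18 were not evaluated here. Against the 8.77% given above, 103 of 547 regions shared with Foxn3 met a start window (18.8%; odds ratio 0.414, 0.305 to 0.562; adjusted exact p = 2.15e-07, Fisher's exact test), as did 52 of 333 with all 3 factors (15.6%; odds ratio 0.519, 0.360 to 0.750; adjusted exact p = 0.00189). An end of an lncRNA gene lay within 1 kb of 82 regions (7.79%), and of 67 of those shared with Foxn3 (11.9%; odds ratio 0.627, 0.446 to 0.881; adjusted exact p = 0.0148). With all 3 factors the share was 8.41% (odds ratio 0.921, adjusted exact p = 0.731). Over 5 kb from gene ends, the start-window difference from regions with all 3 factors was 0.829 (adjusted exact p = 0.647), and at scores from the list's median to its upper quartile the start-window values were 0.454 and 0.350 (adjusted exact p = 0.052 and 0.0593). For lncRNA ends the value against regions shared with Foxn3 was 0.484 at those scores (adjusted exact p = 0.052) and 0.770 without regions at an annotated start (adjusted exact p = 0.46).

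A gene was assigned to each region: the gene that holds it or, between genes, the gene with the nearest end, which need not be the gene it acts on. In 145 regions (13.8%, 11.8% to 16%) the assigned gene also had an Rfx3 peak within 1 kb of an end. This share draws on the same Rfx3 list and the same 1 kb limit as the rule, so it is given as description, without a test. The share was 18.8% for distal regions shared with Foxn3 (odds ratio 0.691, 0.525 to 0.909) and 14.5% for those with all 3 factors. That odds ratio was 0.792 with 1 region per 100 kb, and 0.772 and 0.721 with limits of 500 bp and 5 kb. It was 0.683 at scores from the list's median to its upper quartile. A region's own Rfx3 peak was not left out. Where a Foxn3 or Foxn4 peak shifted the midpoint of a merged region, its own Rfx3 peak could lie within 1 kb of an end. How often this occurred was not determined.

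Most genes that held a region held a single one: 446 of 505 genes held 1, 53 held 2 and 6 held 3 or more. Ptprn2, a gene of dense-core vesicles in neurons and endocrine cells, held 4, with scores of 77, 48, 296 and 54 at 14.4%, 84.3%, 89.8% and 99.4% of its 792 kb. The unconventional myosin gene Myo1d held 3, with scores of 86, 213 and 247. Rtn1, a reticulon of the endoplasmic reticulum in neurons, held 3 with 160, 176 and 86. The thioesterase gene Acot11 (126, 20 and 235), the microtubule-binding neuron navigator Nav1 (91, 135 and 88) and the R-type calcium channel gene Cacna1e (38, 124 and 60) also held 3 each. Lmtk3 held 590 and 64 in a gene of only 21 kb, and Tenm4 held 334 and 31 in 740 kb. The 8 genes named here were 21 to 792 kb long, where the median protein-coding gene was 17.2 kb.

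Over all protein-coding genes, 917 of 21887 (4.19%) were assigned at least 1 region. That share depended on gene length: it was 1.6% for genes up to 10 kb, 3.6% from 10 to 50 kb, 6.4% from 50 to 100 kb and 12.5% above 100 kb. For each gene list below, the share is therefore set beside 4.19% and beside the share among all genes weighted to the list's members in these length classes. The last class is open above 100 kb, so lengths within it are not matched. The weighting also takes no account of the space between genes, where regions were assigned by the nearest end. The counts are descriptions without a test.

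Ciliary genes were assigned these regions at shares whose intervals held that of all genes. Of 124 primary cilium genes 3 were assigned one (2.42%, 0.826% to 6.87%; 5.51% at like lengths). They were Ahi1, which acts at the ciliary base, and Ttc21b and Ift43, which encode subunits of the retrograde transport complex. The highest-scoring region of Ahi1 (126) lay 7.3 kb outside the gene, that of Ttc21b (64) 5.48 kb and that of Ift43 (71) 6.47 kb. Ahi1 and Ift43 also had an Rfx3 peak at a gene end, Ttc21b did not. Of 96 motile cilium genes 4 were assigned one (4.17%, 1.63% to 10.2%; 6.29% at like lengths), all inside the gene: Hydin of the central pair (score 139), the axonemal dynein heavy chains Dnah2 (134) and Dnah1 (57), and the adenylate kinase Ak7 (44). In the Hedgehog list, a pathway that runs through the cilium, 1 of 36 genes was assigned a region (2.78%, 0.492% to 14.2%; 6.12% at like lengths). It was the co-receptor gene Gas1, with a score of 144 at 63.7 kb. Its share was 0.663 times that of all genes, and 1.49 times at scores at or above the list's median.

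Retinal transcription factor genes were assigned a region in 12 of 92 cases (13%, 7.62% to 21.4%), against 4.89% at like lengths. Only 5 of the 12 held a region inside the gene. The others were assigned by the nearest end, up to 190 kb away, for which gene length is no baseline. The highest score was at Onecut3, a factor of horizontal and ganglion cells, where the region of 172 lay 19.5 kb away on the Gm40716 start printed above. Zfhx3 (110), Nfix (104) and Nfia (88) held theirs inside the gene, and Nfix and Nfia are factors of late progenitors. The regions of Myt1 (95) and the neurogenic factor gene Neurog2 (94) lay 4.13 and 6.86 kb outside, and of these 6 genes only Neurog2 had an Rfx3 peak at an end as well. In the Notch pathway, which keeps progenitors from differentiating, 5 of 40 genes were assigned a region (12.5%, 5.46% to 26.1%; 4.89% at like lengths). The ligand genes among them were Dner (92), Jag2 (54) and Dll1 (28), and the others were Dtx4 (73), encoding a Deltex protein, and the coactivator gene Maml3 (58). Except for that of Dner, these scores lay below the median of the Rfx3 list. The share of the Notch list was 2.98 times that of all genes, and 1.34 times at scores at or above the median, where 1 of the 40 genes was left.

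Genes of axon guidance and cell adhesion were assigned a region in 24 of 96 cases (25%, 17.4% to 34.5%), against 10.8% at like lengths. These genes are long, with a median of 291 kb, and Cntnap2 among those assigned a region spans 2241 kb. Most therefore fall in the class open above 100 kb, within which 10.8% does not match their lengths. Tenm4 (334) led, followed by the presynaptic adhesion gene Nrxn2 (192), Ncam1 (153), the guidance cue gene Ntn1 (142) and the postsynaptic adhesion genes Nlgn1 (132) and Nlgn2 (100). All 6 held their region inside the gene, 5.87 to 386 kb from its nearer end, and Ncam1 and Nlgn2 also had an Rfx3 peak at an end. Of all 24 genes, 18 held a region inside the gene. The others were assigned by the nearest end, up to 1135 kb away at Ncam2. Of 89 centrosome and microtubule genes 12 were assigned a region (13.5%, 7.88% to 22.1%; 7.42% at like lengths). They included the doublecortin-like kinase gene Dclk2 (133), Camsap2 (94), which binds microtubule minus ends, the kinesin genes Kif1b (83), Kif26a (76) and Kif5c (61), and Agbl1 (68), encoding a tubulin deglutamylase. Of the 12, 7 held a region inside the gene. In the FOX and RFX families 3 of 28 genes were assigned a region (10.7%, 3.71% to 27.2%; 5.67% at like lengths). Foxp4 (64) and Foxn3 (48) held theirs inside the gene. The Foxn3 region spanned chromosome 12, 99457804 to 99458234, and was 106 kb from the gene's nearer end.

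**Figure D5:**
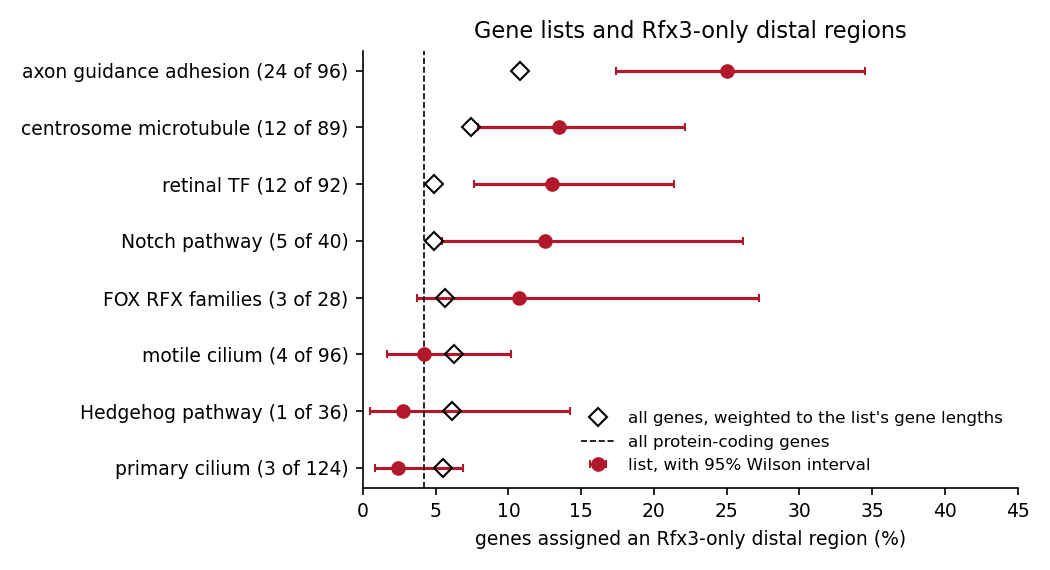
Share of genes in 8 lists that were assigned an Rfx3-only distal region (percent), with 95% Wilson intervals. Diamonds give all genes weighted to the list's length classes, the last of which is open above 100 kb. The dashed line gives all protein-coding genes, 4.19%. Axon guidance and adhesion genes stand at 25% and primary cilium genes at 2.42%.

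The nearest Foxn3 peak lay a median of 172 kb from a region (quartiles 48.7 and 432 kb), and the nearest Foxn4 peak 217 kb (77.8 and 560 kb). Within 10 kb there was a Foxn3 peak for 97 regions (9.22%) and a Foxn4 peak for 54 (5.13%). For 17 regions each, such a peak lay within 1 kb. The smallest gaps to Foxn3 were 29 bp, at Sys1 (chromosome 2, 164461194 to 164461389), and 64 bp, at Camta1. Another Rfx3 peak was nearer, at a median of 83.3 kb, with 192 regions (18.3%) having one within 10 kb. Another Rfx3-only distal region lay within 10 kb of 95 of them (9.03%) and within 100 kb of 299 (28.4%). The Rfx3 list was also the longest, at 3981 peaks against 2794 for Foxn3 and 2956 for Foxn4. The rule had left out regions overlapping a Foxn3 or Foxn4 peak. These gaps were not measured for another class or for random positions, so they have no baseline.

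The regions occurred on every autosome and on the X chromosome, and none was called on Y. Set against protein-coding genes, they ranged from 3.21 per 100 genes on X to 8.84 per 100 on chromosome 12. Set against all distal regions with an Rfx3 peak, they made up 44.3% to 56.8% on the autosomes and 31 of 44 (70.5%) on X, a description that was not tested.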

How the data were processed

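CUT&RUN peaks for Foxn3, Foxn4 and Rfx3 in retina at embryonic day 16 were deposited as 3 lists, 1 per antibody (2794, 2956 and 3981 peaks), in mm10 coordinates per the file headers. Each peak has a score set by the authors and deposited without its scaling; it was used only within the Rfx3 list. cutadapt, Bowtie2, UMI-tools, bedtools and SEACR are named without roles, per the submitters' processing notes. The peak threshold, the use of IgG and the pooling of libraries are not given in the sources used here.

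Peaks overlapping by at least 1 bp were merged, and region midpoints were set against the ends of 21887 protein-coding genes of a RefSeq table (GRCm38.p6, the assembly of mm10). Strand and start windows came from RefSeq (32851 windows of 27025 genes, GRCm38.p6); of coding genes with a window, 60.5% had a start exactly at the gene's own end. Shares carry 95% Wilson intervals. Shares of different classes were tested two-sided with Fisher's exact test, giving sample odds ratios and 95% intervals from the normal approximation of the logarithm, and means by a permutation test with 100000 resamples. Adjusted p-values are Benjamini-Hochberg values over 12 position tests, 30 letter tests and 3 tests of GC content. Of the position tests, those on the distance within 10 kb and on Rfx3 peaks at the assigned gene's end are given as description only. Python 3.11.15, pandas 2.3.3 and scipy 1.17.1 were used, and the scripts were tested on simulated data.

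The members, gene lists and tests were chosen with earlier results of these data known. The planned tests of motifs, GC content and repeats around every peak midpoint were not run, since genome sequence was not used here. Letters in start windows, the position along the gene, start windows and lncRNA ends replaced or joined them after the reference tables were seen. Genes were named by rule: the 10 highest scores, the 8 genes holding most regions, up to 6 genes of each list by score, and the 3 regions on each side of the distance limit; 1 gene that the rule names is not reported here. Printed sequences were a selection of those with RFX letters at annotated starts. They were the pair windows of highest score, others of lower score picked to show how the arms vary, and half-site windows among the 10 highest scores. Symbols matched directly or through a synonym of a single gene; 5 primary cilium, 10 motile cilium and 1 centrosome symbol did not match. Alternatives changed the gene-end distance, the merging, the score, the gene table, the thinning of neighbours, the annotated starts, the gene length and the letters of the RFX pair.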

Additional observations from a re-analysis of the deposited data

How the results depend on the processing

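No paired analysis was possible because each antibody has a single peak list with no values per library. The planned windows of other sizes around the peak midpoint, and the repeat share, were not run, since they need genome sequence. Depth per library is unknown, and whether sites of Foxn3 or Foxn4 below their thresholds lie in these regions was not tested.

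Distances within 10 kb and Rfx3 peaks at the assigned gene's end are described without a test, and their odds ratios below are values only. Odds ratios compare Rfx3-only distal regions with regions shared with Foxn3 (A), with all 3 factors (B) or at gene ends (C). With a limit of 500 bp, Rfx3 at the assigned gene's end was 0.772 against A, the pair 12.9 (B) and 2.76 (C), the half-site 3.15 (B), and GC content differed by 1.04 points (B). With 5 kb, lying in a gene was 0.926 (A) and 1.06 (B), within 10 kb of an end 0.887 (A), an Rfx3-bound end 0.721 (A), the first 50% of the gene 0.664 (B), a start window 0.829 (B), the half-site 2 (A) and 2.63 (C), and GC content -1.18 (A). Merging peaks up to 200 bp apart gave 3.79 for the half-site (B) and 0.0275 for GC content (B). Scores at or above the list's median left 446 regions and gave 0.767 for lying in a gene (A), 0.608 within 10 kb (B), 2.04 (A) and 4.98 (B) for the half-site, and GC content -1.03 (A) and -3.66 (C). There the half-site passed the threshold against B, and GC content fell short of it against C. Without predicted, unnamed and receptor-family genes the pair was 11.1 and the half-site 3.74 (B). With GTTGCC in both arms the pair was 2.40 (B) and 5.19 (C), short of the threshold as before. With 1 region per 100 kb, an Rfx3-bound end was 0.792 (A).

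The other alternatives were chosen after seeing the data. At scores from the median to the upper quartile no tested position difference passed. Against A, lying in a gene was 0.746, an Rfx3-bound end 0.683, the first 50% 0.486, a start window 0.454 and an lncRNA end 0.484. Against B, the first 50% was 0.540 and a start window 0.350. As description only, lying within 10 kb was 0.629 (A) and 0.957 (B). That band holds 369 of the regions, so fewer regions were compared. Without regions at a start window, lying in a gene was 0.819 (A) and 1.04 (B), the first 50% 0.722 (B) and an lncRNA end 0.77 (A). In genes over 50 kb the first 50% was 0.589 (B). Of the 10 alternatives for the first 50% against A, 9 kept the call, at 0.370 to 0.593. At scores at or above the median, the ratio of the list's share to that of all genes moved from 2.98 to 1.34 for Notch and from 0.663 to 1.49 for Hedgehog, within the counting intervals of the lists. These and the pair with GTTGCC in both arms are among 203 values that kept their side of the threshold or, without a test, stayed within those intervals or a factor of 1.5. Another 10 of the values given above changed direction from the main ones. They concerned lying in a gene, within 10 kb and GC content against B, where the main values were 0.935, 1.09 and -0.242. Against A they concerned the half-site and GC content, where the main values were 0.911 and 0.915.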
